A study of Mus musculus with 6 samples.

Results

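The 6 genes described here mark the CD4 and CD8 lineages of T cells: Cd4, Cd40lg and Zbtb7b on the CD4 side, and Cd8a, Cd8b1 and Runx3 on the CD8 side. They were taken by symbol from a table of raw counts with 45808 rows, and all 6 were among the 14209 genes with enough counts to be tested. The cells were T cells purified from the spleen of C57BL/6 mice 2 months old and activated in culture with antibodies to CD3 and CD28 together with IL-2. Of the 6 libraries, 3 were wild type and 3 were Drp1-/- (KO), lacking by label the dynamin-related GTPase that divides mitochondria. The labels name neither the promoter of a Cre nor the cells in which the gene was deleted, and they do not say that replicates came from separate animals or cultures. The p-values therefore measure only the spread between these libraries, which may be technical.

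Mature alpha-beta T cells carry one of a pair of coreceptors. CD4 binds MHC class II molecules and marks helper cells, while CD8, usually a heterodimer of an alpha and a beta chain, binds MHC class I molecules and marks cytotoxic cells. Both coreceptors bring the kinase Lck to the T cell receptor. The factor ThPOK, encoded by Zbtb7b, keeps cells in the CD4 lineage and represses Runx3, whereas Runx3 silences Cd4 and sustains Cd8 and cytotoxic genes. Activated CD4 cells display CD40 ligand, encoded by Cd40lg, which stimulates B cells and dendritic cells. Runx3 is also expressed in type 1 helper cells, gamma-delta T cells and NK cells, so it is less restricted to one lineage than the coreceptors.

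Total counts ran from 24738017 to 34730475 per library. Dnm1l, which encodes Drp1, stood at 123.2, 116.6 and 116.8 CPM (counts scaled by library total and a TMM factor) in wild-type replicates 1 to 3 and at 92.6, 92.9 and 100.7 CPM in KO replicates 1 to 3. Its log2 fold change was -0.32 ± 0.05 (SE), lower in each KO library (edgeR quasi-likelihood adjusted p = 0.000728). Reads from exons left in place by a deletion would count towards this level, and their part in it was not tested. Wild-type replicate 1 differed most from its group, with a chi-square per gene of 11.96 and 13.3 against replicates 2 and 3, which differed from each other by 2.54. Xist, the RNA of the inactive X chromosome, had 0 to 3 counts per wild-type library but 12950 to 16862 per KO library, while the Y-linked gene Ddx3y had 3159 to 3604 and 2163 to 2679. These counts are not scaled for depth. The Y-linked genes Eif2s3y, Kdm5d and Uty were read in every library too, with 4055 to 4849, 1517 to 1826 and 1064 to 1405 counts in KO. The KO libraries thus held Xist together with Y-linked RNA, and the wild-type libraries Y-linked RNA almost without Xist. The labels do not give the sex of the animals, and genotype and this difference cannot be told apart in any result below.

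In the KO libraries the RNA of Cd4, Zbtb7b, Cd8b1 and Runx3 was lower than in wild type, while Cd8a, whose libraries overlapped, and Cd40lg did not pass the test. The RNA of Runx3 fell by 25.1%, that of Cd4 fell by 22.3%, that of Zbtb7b fell by 20.2% and that of Cd8b1 fell by 11.2%. Both lineage factors fell, so the changes did not divide by lineage. Of the 6 genes, 4 fell and 0 rose at a Benjamini-Hochberg adjusted p under 0.05, where 26.1% of all tested genes fell, 26.7% rose and 52.9% changed in either direction. The median log2 fold change of the 6 was -0.25, against 0.01 over all tested genes. In 5 of the 6 every KO library lay below every wild-type library, as was so for 30.8% of all tested genes. Without wild-type replicate 1 the log2 fold changes were -0.37 for Cd4, -0.34 for Zbtb7b, -0.38 for Runx3, -0.17 for Cd8b1, -0.18 for Cd40lg and -0.043 for Cd8a. In bulk RNA, fewer cells of a type and less RNA per cell cannot be told apart.

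**Figure D1:**
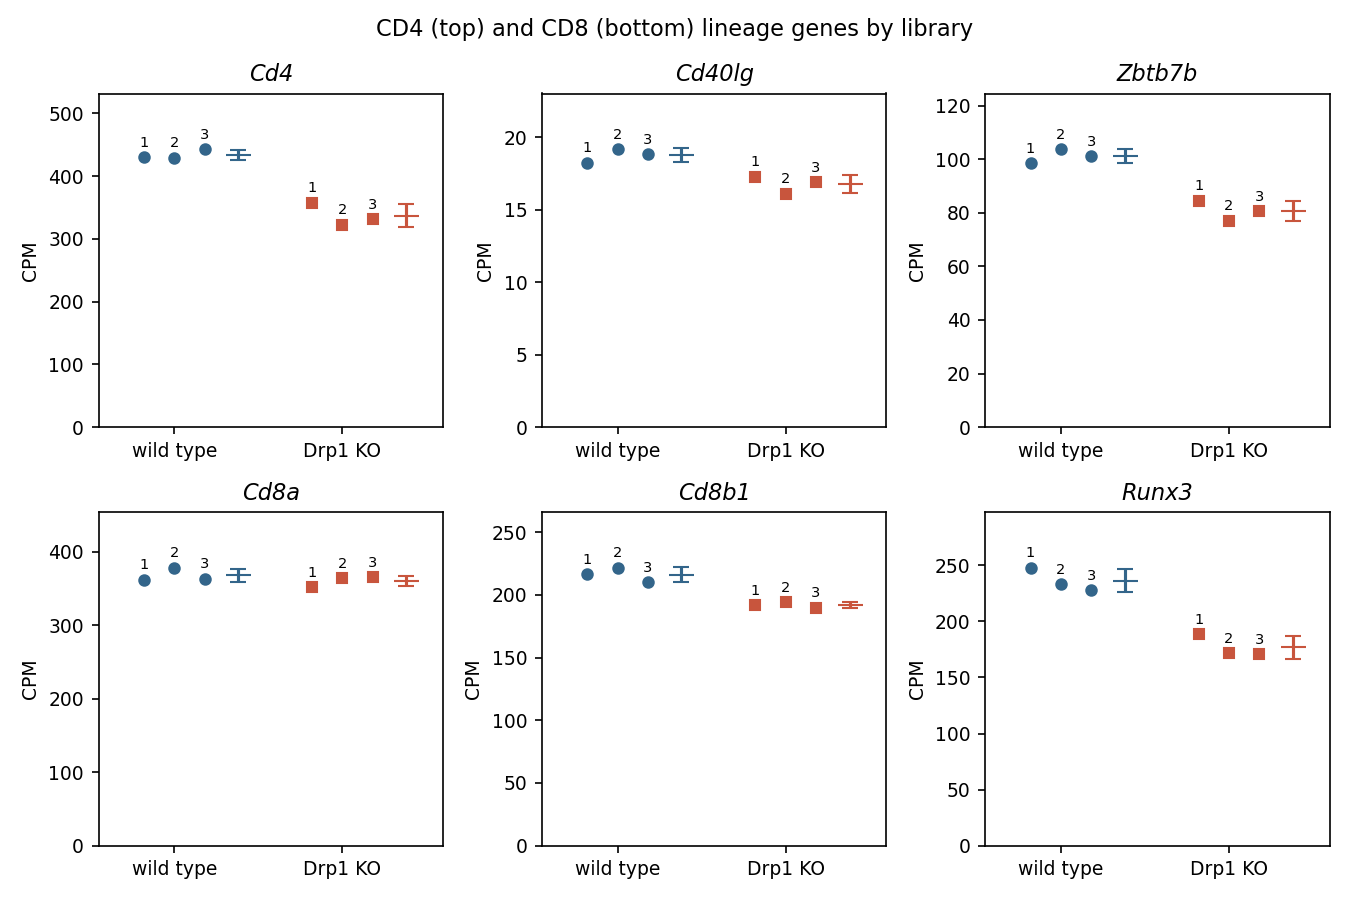
CPM (y axis, from 0) of each gene in wild-type (circles) and KO (squares) libraries, numbered by replicate; the bar beside each group is its mean and SD over 3 libraries. The groups are separate for every gene shown except Cd8a, with means of 368 (wild type) and 360.4 (KO) CPM.

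Levels of different genes can be set side by side only per length, here as CPM per kilobase of merged exons. On that scale the wild-type order was Cd8b1 (146 ± 4.0, SD, n = 3), Cd4 (108 ± 1.94), Cd8a (101 ± 2.52), Runx3 (47.2 ± 2.09), Zbtb7b (18.1 ± 0.466) and Cd40lg (15.0 ± 0.379). No neighbours in that order overlapped in their libraries. In KO the order was Cd8b1 (129 ± 1.56), Cd8a (99.1 ± 1.99), Cd4 (83.6 ± 4.54), Runx3 (35.3 ± 2.00), Zbtb7b (14.4 ± 0.663) and Cd40lg (13.4 ± 0.484). Cd4 and Cd8a thus stood in the opposite order in KO, where their libraries again did not overlap. The KO ranges of Zbtb7b and Cd40lg overlapped at their ends, though within each KO library Zbtb7b was the higher, at 15.1, 13.8 and 14.4 against 13.8, 12.9 and 13.5 CPM per kilobase. With the longest transcript of each gene as its length, Cd4 again stood above Cd8a in wild type (139.7 and 118 CPM per kilobase) and below it in KO (108 and 115).

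Cd4 (chromosome 6, 124864692 to 124888221, mm10, minus strand), the coreceptor of helper cells, had 429.9, 429.1 and 443.1 CPM in wild-type replicates 1 to 3 and 357.6, 322.5 and 331.2 CPM in KO replicates 1 to 3. Every KO library lay below every wild-type library, and KO replicate 1 was the highest of the KO libraries. The means were 434 ± 7.84 and 337 ± 18.3 CPM (SD, n = 3 each). The log2 fold change of Cd4 was -0.36 ± 0.05 (SE), and the edgeR quasi-likelihood adjusted p was 0.000227. In size this change exceeded that of 62.9% of tested genes, so it was of a common magnitude in this comparison.

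Cd40lg (chromosome X, 57212143 to 57224042, plus strand), the helper ligand for CD40, was the least abundant of the 6, with 428 to 617 counts per library. It stood at 18.2, 19.2 and 18.8 CPM in wild type and at 17.3, 16.1 and 16.9 CPM in KO. The KO libraries were all below the wild-type ones. The means were 18.7 ± 0.474 and 16.8 ± 0.605 CPM, and the log2 fold change of -0.16 ± 0.07 missed the threshold (edgeR adjusted p = 0.0601). Its 95% interval, from -0.31 to -0.02, does not show that the level stayed the same. With DESeq2 size factors (edgeR adjusted p = 0.0473) or without wild-type replicate 1 (0.0351) Cd40lg passed. The gene lies on the X chromosome, of which the Xist counts above show a difference between the genotypes, and the part of this in its level was not tested.

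Zbtb7b (chromosome 3, 89377644 to 89394776, minus strand) encodes ThPOK, the factor that commits cells to the CD4 lineage. Its level was 98.5, 103.8 and 101.1 CPM in wild type, against 84.4, 77.0 and 80.6 CPM in KO. As with Cd4, the groups were well separated and KO replicate 1 was the highest KO library. The means were 101 ± 2.61 and 80.7 ± 3.71 CPM, with a log2 fold change of -0.33 ± 0.05 and an edgeR adjusted p of 0.000585. An antisense gene, Gm15417, overlaps 6 of its 10 merged exons. Gm15417 had 46 to 73 counts per library, against 2313 to 3185 for Zbtb7b, and the part of shared reads was not tested.

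Runx3 (chromosome 4, 135120652 to 135177990, plus strand) encodes the factor that maintains the CD8 lineage, and it had the largest fold change of the 6. It stood at 247.9, 233.0 and 227.8 CPM in wild type and at 188.3, 171.4 and 170.6 CPM in KO. Replicate 1 was the highest library of both groups, and the groups did not overlap. The means were 236 ± 10.5 and 177 ± 10.01 CPM, with a log2 fold change of -0.42 ± 0.06 and an edgeR adjusted p of 0.000212. In size this exceeded the change of 69.0% of tested genes. The antisense gene Gm16224 lies inside Runx3 but touches none of its exons, and it had 1 to 7 counts.

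The DNA just upstream of start sites is shown for both lineage factors and for Cd8a, which was not called lower. RefSeq promoter windows (GRCm38.p6, the same assembly as mm10) were matched for 3 of the 6 genes, with 5 start sites. The 3 windows with no annotated UTR of the same gene are printed, each the 250 bases before a start site, 5′ to 3′ on the strand of the gene, with the core RUNX motif TGTGGT or its reverse complement in capitals. They lie at chr4:135120395-135120644 for the upstream start of Runx3, chr3:89387672-89387921 for the inner start of Zbtb7b and chr6:71373177-71373426 for Cd8a.
Runx3: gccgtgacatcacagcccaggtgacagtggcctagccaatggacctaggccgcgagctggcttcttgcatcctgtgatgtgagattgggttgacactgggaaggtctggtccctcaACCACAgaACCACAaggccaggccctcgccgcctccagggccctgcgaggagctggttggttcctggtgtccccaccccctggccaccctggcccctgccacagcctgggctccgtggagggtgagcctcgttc
Zbtb7b: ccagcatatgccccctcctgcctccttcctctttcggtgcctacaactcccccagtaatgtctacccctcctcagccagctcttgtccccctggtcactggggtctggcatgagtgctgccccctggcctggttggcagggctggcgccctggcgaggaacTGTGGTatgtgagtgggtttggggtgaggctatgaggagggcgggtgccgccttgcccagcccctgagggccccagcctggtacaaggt
Cd8a: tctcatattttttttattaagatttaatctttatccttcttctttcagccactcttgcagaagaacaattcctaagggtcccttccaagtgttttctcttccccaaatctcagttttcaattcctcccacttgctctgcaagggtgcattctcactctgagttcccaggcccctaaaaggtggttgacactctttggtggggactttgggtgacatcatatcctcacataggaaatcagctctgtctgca
The Runx3 window held 2 RUNX matches, starting 134 and 126 bases upstream of the start site, and the Zbtb7b window held 1, starting 89 bases upstream. The Cd8a window held 0, as did the windows of the other start sites of Runx3 and Zbtb7b, which are not printed because they hold UTR bases. Such a match was found in 14.0% of 32851 promoter windows of this length, on either strand. The E-box of E proteins, CAGNTG on either strand, was found 1 time in the printed Runx3 window, 1 time in the unprinted Zbtb7b window and 0 times in the others, against 44.8% of all windows, and it overlapped no RUNX match. These are matches of letters, not measured sites, and their part in the changes was not tested.

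Cd8a (chromosome 6, 71373427 to 71379173, plus strand), the alpha chain of CD8, had 361.8, 378.4 and 363.5 CPM in wild type, against 352.1, 363.7 and 365.4 CPM in KO. The groups overlapped, with KO replicates 2 and 3 each above 2 of the wild-type libraries. The means were 368 ± 9.16 and 360.4 ± 7.23 CPM. The log2 fold change of Cd8a was -0.03 ± 0.04, with a 95% interval from -0.12 to 0.06 and an edgeR adjusted p of 0.576. A fall as large as that of Cd4 lies outside that interval.

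Cd8b1 (chromosome 6, 71322788 to 71337494, plus strand), the beta chain of CD8, lies 35932 bases upstream of Cd8a. It stood at 216.6, 221.7 and 209.9 CPM in wild type and at 191.6, 194.3 and 189.7 CPM in KO, with no overlap. The means were 216 ± 5.93 and 192 ± 2.31 CPM, and the log2 fold change was -0.17 ± 0.04 (edgeR adjusted p = 0.00764). This fall depended on how libraries were scaled. With library totals alone the log2 fold change of Cd8b1 was -0.10 (adjusted p = 0.0903, with 53.1% of tested genes called), and relative to the summed counts of 12 pan-T genes it was -0.05 (adjusted p = 0.320).

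The CD4 to CD8 balance was measured as a ratio of counts within each library, which needs no scaling for depth. The Cd4/Cd8a ratio was 1.19, 1.13 and 1.22 in wild-type replicates 1 to 3 and 1.02, 0.887 and 0.906 in KO replicates 1 to 3. All KO libraries were lower, and 2 of them had fewer Cd4 than Cd8a counts. The mean ratio was 1.18 ± 0.0431 in wild type, against 0.936 ± 0.0695 in KO. On the log2 scale the ratio fell by 0.34. A 2-sided exact permutation test gave p = 0.1, the smallest that 3 against 3 libraries allow. The edgeR quasi-likelihood test with Cd8a counts as the library scale, which takes its spread from all genes, gave a log2 change of -0.33 ± 0.06 for Cd4 with an adjusted p of 0.00117. On that scale 50.5% of tested genes were called and 21.8% were lower in KO.

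Against the beta chain the shift was smaller. The Cd4/Cd8b1 ratio was 1.98, 1.94 and 2.11 in wild type, against 1.87, 1.66 and 1.75 in KO, with means of 2.01 ± 0.0906 and 1.76 ± 0.104. The groups did not overlap, and KO replicate 1 was again nearest to wild type. With Cd8b1 counts as the scale the log2 change of Cd4 was -0.19 ± 0.06 (edgeR adjusted p = 0.0137, with 55.6% of tested genes called and 12.9% lower). This call was lost without wild-type replicate 3 (log2 -0.16, adjusted p = 0.0576), KO replicate 2 (-0.15, 0.0835) or KO replicate 3 (-0.19, 0.0549).

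The chains of CD8 themselves shifted against each other. The Cd8a/Cd8b1 ratio was 1.67, 1.71 and 1.73 in wild type, against 1.84, 1.87 and 1.93 in KO. Every KO library was higher, with means of 1.70 ± 0.0311 and 1.88 ± 0.0446. With Cd8b1 counts as the scale, Cd8a rose by a log2 of 0.14 ± 0.05 (edgeR adjusted p = 0.0277), on a scale where 42.7% of tested genes were higher. The call was lost without KO replicate 2 (log2 0.14, adjusted p = 0.0834) or KO replicate 3 (0.12, 0.133). The CD8 alpha chain can also pair with itself, a form found on some gamma-delta and other unconventional T cells. Gamma-delta T cell markers were higher in the same KO libraries, with a summed level of 8 genes of 53.9 to 58.6 CPM in wild type, against 111 to 130 CPM in KO, and their part in the ratio was not tested.

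Other pairs separated without passing the test. The Cd40lg/Cd8a ratio was 0.0504, 0.0507 and 0.0518 in wild type, against 0.0491, 0.0443 and 0.0462 in KO, and the log2 change of Cd40lg relative to Cd8a was -0.13 ± 0.07 (edgeR adjusted p = 0.151, 95% interval from -0.29 to 0.03). The 2 helper genes Cd40lg and Cd4 gave a Cd40lg/Cd4 ratio of 0.0424, 0.0447 and 0.0425 in wild type, against 0.0483, 0.0499 and 0.0510 in KO. Each KO library was higher. The log2 change of Cd40lg relative to Cd4 was 0.20 ± 0.09 (edgeR adjusted p = 0.0524, with 66.5% of tested genes called on that scale), which passed without KO replicate 1 (0.0322). The lineage factors kept closer to each other: the Zbtb7b/Runx3 ratio was 0.397, 0.445 and 0.444 in wild type, against 0.448, 0.449 and 0.473 in KO. Wild-type replicate 1 was the lowest, and the other libraries lay close together. The log2 change of Zbtb7b relative to Runx3 was 0.09 ± 0.08 (edgeR adjusted p = 0.297, 95% interval from -0.07 to 0.25, with 69.7% of tested genes called), and 0.04 without wild-type replicate 1. All 6 ratios had an exact permutation p of 0.1, and 0.1 after adjustment over the 6.

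**Figure D2:**
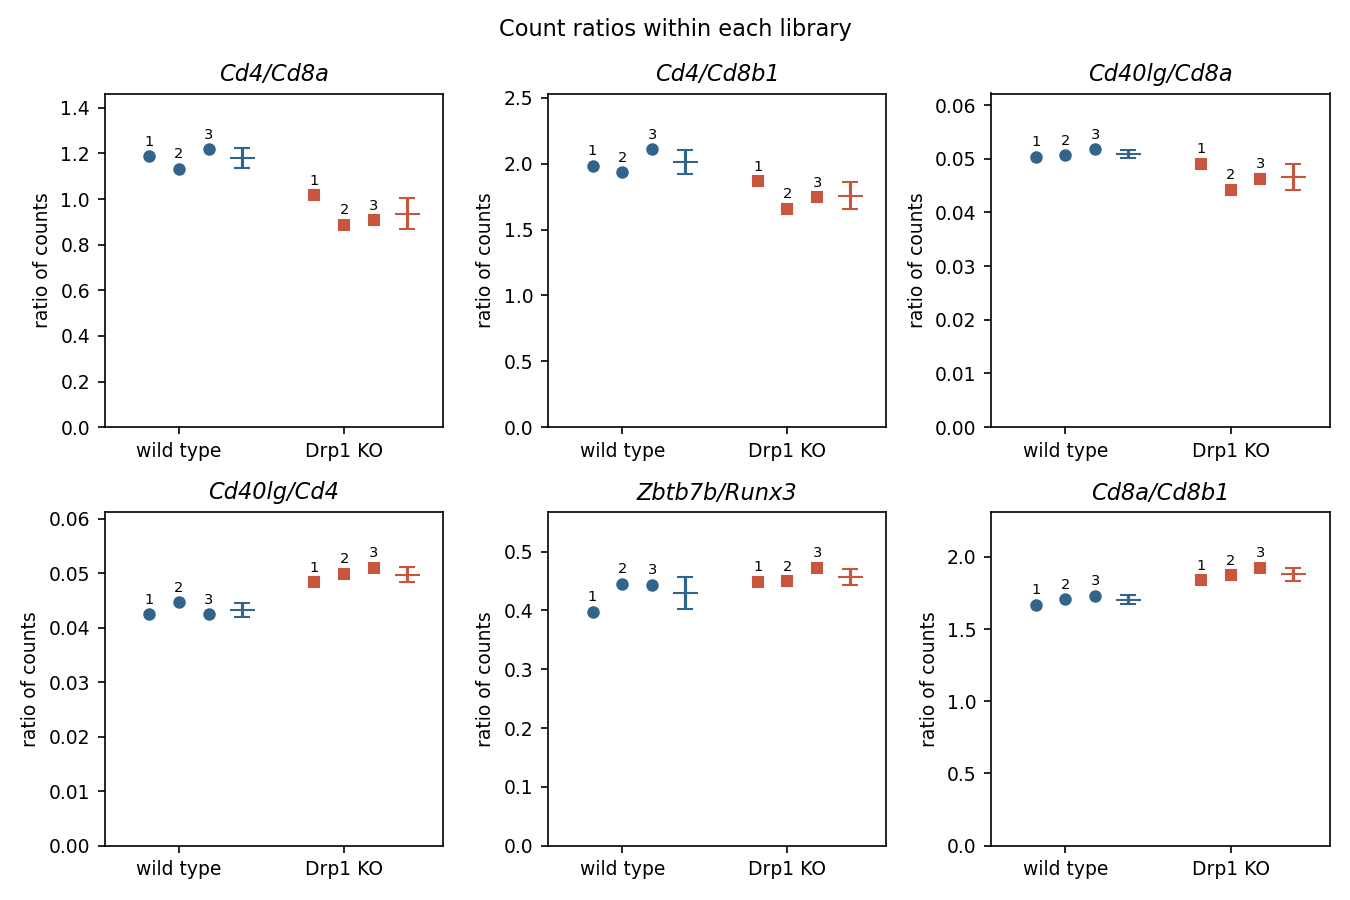
Ratio of counts of the named genes (y axis, from 0) in each wild-type (circles) and KO (squares) library, numbered by replicate, with the mean and SD of 3 libraries beside them. The Cd4/Cd8a ratio averages 1.18 in wild type, against 0.936 in KO, and the Cd8a/Cd8b1 ratio 1.70 and 1.88.

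Some genes common to all T cells were lower in KO as well. Of 12 pan-T genes, 7 were called lower, 1 was called higher and 4 (Trbc1, Trbc2, Lat and Cd2) did not pass, where 26.1% of all tested genes were lower and 26.7% higher. Their median log2 fold change was -0.17, and their summed level was 4014 to 4126 CPM in wild type, against 3729 to 3785 CPM in KO. Cd3e, a chain of the receptor's CD3 complex, fell from 286 ± 3.17 to 226 ± 6.53 CPM (log2 -0.34 ± 0.04), about as much as Cd4, and Cd6, a costimulatory receptor, fell by a log2 of 0.42. Cd3d (log2 -0.29 ± 0.04) and Cd5, a brake on receptor signaling (log2 -0.35 ± 0.05), fell too. Thy1, a surface glycoprotein of T cells, rose (log2 0.40 ± 0.05). Measured relative to the summed pan-T counts, Runx3 (log2 -0.30 ± 0.05, adjusted p = 0.000799), Cd4 (-0.25 ± 0.05, 0.00193) and Zbtb7b (-0.21 ± 0.05, 0.00754) were still called lower by edgeR, where 54.7% of tested genes were called and 16.8% were lower. Cd8a stood at 0.09 ± 0.04 (adjusted p = 0.116) and Cd40lg at -0.05 ± 0.07 (0.604) on that scale, so neither passed. This scale shifts the median of all tested genes to 0.12.

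**Figure D3:**
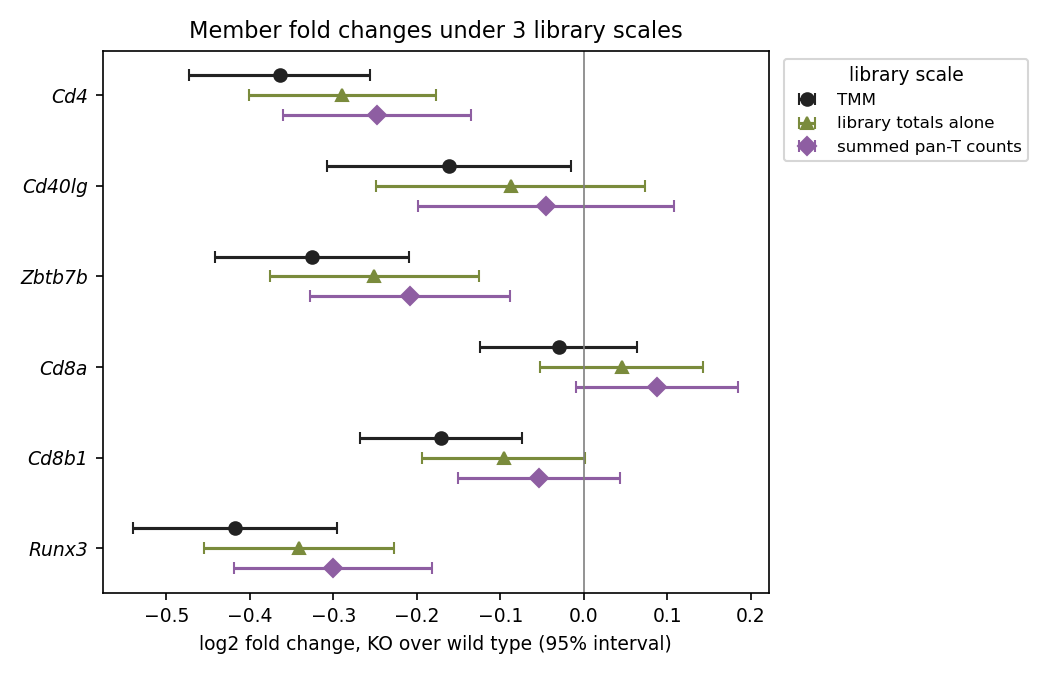
Log2 fold change, KO over wild type (x axis), of the 6 genes (y axis) with its 95% interval, for libraries scaled by TMM, by library totals alone or by the summed counts of 12 pan-T genes. Cd4, Zbtb7b and Runx3 lie below 0 on each scale, while Cd8a moves from -0.03 to 0.05 and 0.09.

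Of 24 other genes associated with CD4 cells, 10 were called lower and 2 higher, and 12 did not pass. The share called, 50%, was near the 52.9% of all tested genes, where 26.1% were lower and 26.7% higher. The median log2 fold change was -0.18, and -0.10 without wild-type replicate 3. The number higher was 1 without KO replicate 3 and 3 without wild-type replicate 1. With the summed pan-T counts as the scale, which takes Cd5 out of the test, 4 were higher and 7 lower, with a median of -0.019. On that scale 54.7% of all tested genes were called and 16.8% were lower. The 4 with the smallest adjusted p among those that fell were Il6st, the shared signaling chain of IL-6 family receptors (62.5 ± 1.5 to 39.8 ± 2.06 CPM), Ctla4, an inhibitory receptor (486 ± 51.9 to 331 ± 14.0 CPM), Cd28, the costimulatory receptor targeted in the culture (441 ± 32.0 to 310 ± 23.2 CPM), and Bcl6, the factor of follicular helper cells (12.7 ± 2.49 to 5.80 ± 1.24 CPM). Their log2 fold changes were -0.65 ± 0.06, -0.56 ± 0.07, -0.51 ± 0.07 and -1.12 ± 0.17. The 2 that rose were Tcf3, which encodes E proteins (log2 0.28 ± 0.07), and Gata3, the factor of type 2 helper cells that acts upstream of ThPOK (log2 0.24 ± 0.06). Ctla4, Cd28 and several others of this list are also expressed by CD8 cells, and Cd5 stands among the pan-T genes as well. Relative to the summed pan-T counts the median of the list was -0.02, beside 0.12 over all tested genes.

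Genes associated with CD8 and cytotoxic cells divided. Of 24, 23 were tested, of which 10 were called higher and 6 lower, while 7 did not pass. The share called was 69.6%, against 52.9% of all tested genes (26.7% higher and 26.1% lower). The median log2 fold change was 0.15, and 0.083 without KO replicate 3. Relative to the summed pan-T counts it was 0.27, beside 0.12 over all tested genes. Klrg1, a receptor of terminal effector cells, was under the filter. Gzmb, the granule protease, rose from 2970.3 ± 169.7 to 4478 ± 313 CPM (log2 0.59 ± 0.06). Xcl1, a chemokine (log2 0.75 ± 0.08), Ly6c2, a surface antigen of activated and memory CD8 cells (log2 0.57 ± 0.08), and Eomes, a factor of effector and memory cells (log2 0.82 ± 0.11), rose as well. Those that fell were led by Cd7, which went from 5.17 ± 0.775 to 1.44 ± 0.239 CPM (log2 -1.84 ± 0.17). Runx1, the relative of Runx3 that also acts on Cd4 (log2 -0.39 ± 0.07), Ctsw, a cathepsin of cytotoxic cells (log2 -0.26 ± 0.05), and Patz1, which encodes MAZR, a repressor of Cd8 and Zbtb7b (log2 -0.27 ± 0.06), fell. Cbfb, the shared partner of the Runx factors, stood at 114 ± 8.59 and 126 ± 10.9 CPM and did not pass (adjusted p = 0.101). The genes that rose are expressed in activated effector and NK cells too, so the list does not count CD8 cells.

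A mixed list of genes of T cell receptor signaling, in which coreceptors take part, and of cytokine signaling mostly fell. Stat5a, Stat5b, Il7r and Socs1 belong to its cytokine part. Of 15 tested, 10 were called lower and 2 higher, and 3 did not pass, where 26.1% of all tested genes were lower, 26.7% higher and 52.9% called. The median log2 fold change was -0.18, and 5 of the 15 are also pan-T genes. With library totals alone 7 were lower. With the summed pan-T counts as the scale, which takes those 5 out of the test, 4 were lower, where 16.8% of all tested genes were, and the median was -0.071. Stat5b, which transmits IL-2 and IL-7 signals, fell (log2 -0.46 ± 0.06), as did Zap70, the kinase recruited to the receptor (294 ± 22.5 to 205 ± 18.4 CPM, log2 -0.52 ± 0.07), Cd3e and Cd3d. Lck, the kinase bound by CD4 and CD8, was lower too, at 661 ± 22.1 and 545 ± 13.4 CPM (log2 -0.28 ± 0.04). Socs1, an inhibitor of cytokine signaling, rose (log2 0.81 ± 0.15). Adjusted p-values of the genes called in these lists and named here ran from 3.52e-05 for Il6st to 0.0116 for Gata3 by edgeR.

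**Figure D4:**
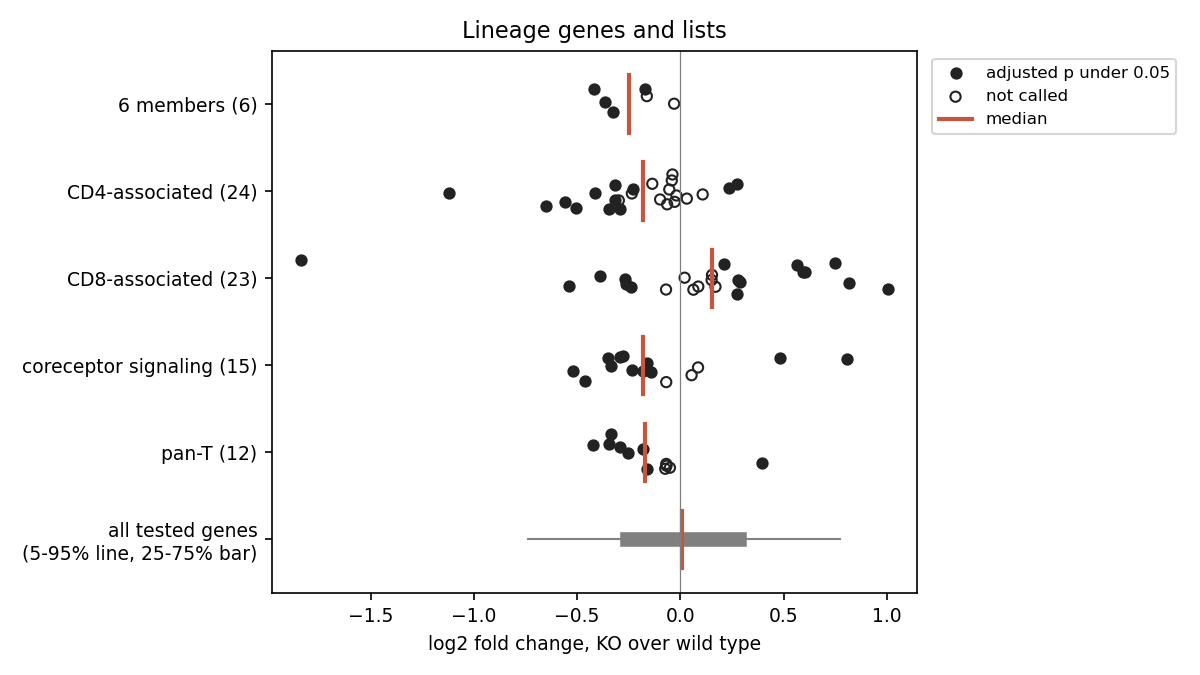
Log2 fold change, KO over wild type (x axis), of each tested gene of the 6 members and 4 lists (y axis, number tested in brackets), filled where the edgeR adjusted p was under 0.05; orange lines are medians, and the grey bar and line span the middle of all tested genes. The CD4-associated median is -0.18 and the CD8-associated median 0.15.

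Other cells that the cultures could hold were followed by their markers. Of 8 tested gamma-delta genes, 7 rose and 1 fell, where 52.9% of all tested genes were called. Among them were Trdc, of the delta chain of the receptor, at 18.4 ± 0.941 CPM in wild type, against 45.2 ± 2.44 CPM in KO and Tcrg-C1 of the gamma chain at 4.30 ± 0.384 and 12.4 ± 1.34 CPM. Gamma-delta T cells mostly lack CD4, and their part in the Cd4 fall was not tested. NK and NKT markers summed to 28.6 to 28.9 CPM in wild type, against 23.4 to 26.7 CPM in KO. Among the 6 tested, 3 were called higher and 1 lower, where 26.7% of all tested genes were higher and 26.1% lower. Of the defining ones Ncr1 rose from 0.181 ± 0.0920 to 0.634 ± 0.121 CPM and Klrb1c from 1.2 ± 0.426 to 2.38 ± 0.544 CPM. Both were at low levels, Ncr1 with 2 to 8 counts per wild-type library. Fcer1g rose from 3.13 ± 0.459 to 4.30 ± 0.532 CPM, while Klra7 fell from 19.7 ± 1.29 to 13.5 ± 1.56 CPM and made up most of the sum. The sum of the B cell markers overlapped between the genotypes, at 188 to 222 and 207 to 225 CPM. Of 8 tested, 2 rose: Ms4a1 from 15.8 ± 0.861 to 18.3 ± 1.21 CPM (edgeR adjusted p = 0.0462) and Fcer2a from 49.2 ± 10.1 to 63.8 ± 4.55 CPM (0.0284).

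Some dendritic cells carry CD8 alpha or CD4, and macrophages can carry CD4. Dendritic cell markers summed to 74.0 to 75.7 CPM in wild type, against 67.6 to 69.2 CPM in KO, mostly from Batf3, which activated T cells also express (60.8 ± 2.30 and 54.1 ± 1.23 CPM). Xcr1 and Siglech had 0 counts in every library, where 3 counts, the limit that a count of 0 allows, are 0.0840 to 0.128 CPM. The defining gene Itgax stood at 1.54 ± 0.104 and 1.65 ± 0.170 CPM, and Zbtb46, the other, at 10.3 ± 1.12 and 10.7 ± 0.283 CPM. Macrophage markers summed to 25.01 to 28.17 CPM in wild type, against 19.9 to 22.4 CPM in KO, nearly all from Cd68, which fell from 26.2 ± 1.56 to 20.0 ± 1.17 CPM, while Lyz2 rose from 0.187 ± 0.0307 to 0.489 ± 0.113 CPM. Lyz2 was at a low level, with 4 to 7 counts per wild-type library and 12 to 20 per KO library. Cd68 and Lyz2 were the only 2 of the 8 macrophage markers with enough counts to be tested. Of the other macrophage markers, C1qa and Fcgr1 had 0 counts throughout, Csf1r stood at 0.0907 ± 0.0460 and 0.0286 ± 0.0280 CPM, and Adgre1 at 0.0819 ± 0.0468 and 0.105 ± 0.113 CPM. The part of dendritic cells and macrophages in the coreceptor levels was not tested. Regulatory T cells are CD4 cells, and Foxp3, their defining factor, was low at 0.418 ± 0.0684 CPM in wild type, against 0.835 ± 0.194 CPM in KO (log2 0.96 ± 0.28). The sum of the 7 regulatory T cell markers, 1666 to 1962 CPM in wild type, against 2090.0 to 2218 CPM in KO, came mainly from Il2ra, which all activated T cells express. The list did not move as a whole: 2 were called higher, 1 was called lower and 4 did not pass. Over all tested genes 26.7% were higher and 26.1% lower. Tnfrsf18 was the one called lower, from 592 ± 7.96 to 498 ± 13.9 CPM (log2 -0.25 ± 0.04).

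**Figure D5:**
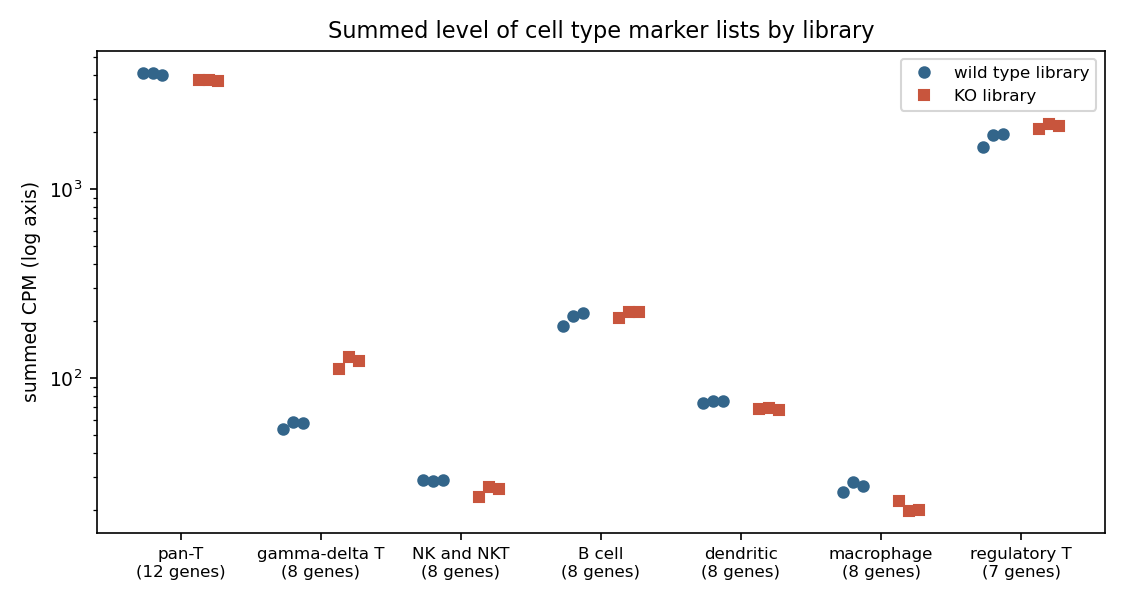
Summed CPM (y axis, log scale) of 7 marker lists (x axis, number of genes in brackets) in each wild-type (circles) and KO (squares) library. The gamma-delta list lies at 53.9 to 58.6 CPM in wild type and at 111 to 130 CPM in KO.

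Genes with the most similar course over the 6 libraries were sought among 9594 genes at 5 CPM or more, the members included, by the root mean square difference of log2 CPM after centring each gene. The closest to Cd4 were Stard3 (0.0201) and Tap1, a peptide transporter of the MHC class I pathway (0.0214). Those closest to Zbtb7b were Rin3 (0.0159) and Nipal3 (0.0213), and those closest to Runx3 were Rbm5 (0.0119) and Kcnn4, a potassium channel of activated T cells (0.0122). Shc1 (0.00853) and Egln2 (0.0131) were closest to Cd40lg, Fam117a (0.0102) and Arl6ip1 (0.0112) to Cd8a, and Mta3 (0.0135) to Cd8b1. No member was among the 2 genes closest to another member. With so few kept out of 9594, this does not show that the members changed independently of each other.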

How the data were processed

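Polyadenylated RNA of 6 libraries was sequenced, and 1 table of raw counts for single samples, by gene symbol, was deposited. The submitters' processing notes name STAR 2.5.2, HTSeq 0.6.1, DESeq2 1.12 and the mm10 genome, without saying what each was used for. The library kit was stranded, per the labels' protocols. Neither the annotation used for counting nor its strand setting is stated, and reads of antisense genes may not be separated.

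Libraries were grouped by their labels. The main test was edgeR 4.0.16 (R 4.3.3) with TMM factors (0.949 to 1.03), filterByExpr, and the quasi-likelihood F test with Benjamini-Hochberg adjustment over 14209 genes, with 4 residual degrees of freedom. Changes of 1 gene relative to another were fitted over all genes with the other gene's counts as library size. Ratios were also compared by exact permutation. No gene list was tested as a set. Positions and exon lengths are from GENCODE release M21 and promoters from RefSeq (GRCm38.p6). The procedure was tested on simulated data.

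The 6 genes were named whatever their result. From each lineage list up to 4 called genes per direction with the smallest adjusted p were named, from marker lists the first 2, and for each of the 6 the 2 genes with the closest course. Lck, Cbfb, Klrg1 and further markers were picked with their values in view. The values of 3 genes that the rule names are not reported here, though they count in the totals. The members and lists were chosen with earlier results of these data known. Alternatives were DESeq2 size factors, upper quartile factors, library totals, DESeq2 1.42.0, limma-voom (limma 3.58.1), no filter, 1 CPM in 3 libraries, a replicate block, an adjusted p under 0.01 and each library left out. Scaling by summed pan-T counts was added after seeing the data. Figures were drawn with matplotlib 3.10.9.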

Additional observations from a re-analysis of the deposited data

How the results depend on the processing

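The falls of Cd4 (log2 -0.41 to -0.25), Zbtb7b (-0.36 to -0.21) and Runx3 (-0.47 to -0.30) were called under all 16 alternatives, with adjusted p-values up to 0.00754. The fall of Cd4 relative to Cd8a was called under all 8 of its alternatives (-0.40 to -0.30). Cd8a, never called, changed sign with library totals alone (0.045) and with summed pan-T counts as the scale (0.088), and on those scales Cd8b1 (-0.096 and -0.054) was no longer called, since both scales raise every fold change. Cd40lg passed with DESeq2 size factors (-0.17), and with libraries left out it ran from -0.19 to -0.13. Cd40lg relative to Cd4 passed with a filter of 1 CPM in 3 libraries (0.20) and with the replicate block (0.20), and ran from 0.18 to 0.23 with libraries left out. With libraries left out, Cd4 relative to Cd8b1 ran from -0.24 to -0.15 and Cd8a relative to Cd8b1 from 0.12 to 0.16. The cause of these differences was not tested. The count of called genes ran from 5369 to 7900, and 62.0% of calls were higher with library totals alone and 69.3% with pan-T counts, against 50.6% with TMM.

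With the replicate number as a block, Cd4 stood at -0.37, Runx3 at -0.42 and Cd8b1 at -0.17, and apart from Cd40lg relative to Cd4 no call of the 6 genes or of their relative changes moved, while 11 CD4-associated genes were lower in place of 10. Deviations of same-numbered libraries correlated at 0.17, 0.13 and 0.01, while wild-type replicate 3 correlated best with KO replicate 2 (0.11). These values do not settle whether the numbers mark pairs, and the main test did not pair them. At 428 to 617 counts Cd40lg has the least depth of the 6.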
